A study of Mus musculus with 18 samples.

Results

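Lysosome and autophagy genes were followed through osteoblast differentiation of O9-1 cells, a mouse neural crest (NC) line originally taken from embryos. The set holds 40 genes of the 55335 gene identifiers in the count tables, found by matching each identifier to its mouse symbol and taking the named members, and all 40 matched. By role they are 3 transcription factors (Tfeb, Tfe3, Mitf), 18 hydrolases, 3 lumen cofactors (Psap, Grn, Npc2), 5 membrane proteins (Lamp1, Lamp2, Cd63, Npc1, Mcoln1), 5 proton pump genes (Atp6v0d1, Atp6v0d2, Atp6v1a, Atp6v1h, Atp6ap1) and 6 autophagy genes (Sqstm1, Map1lc3a, Map1lc3b, Gabarapl1, Wipi1, Ulk1). The hydrolases are the cathepsins Ctsa, Ctsb, Ctsd, Ctsf, Ctsh, Ctsk, Ctsl, Ctss and Ctsz, the proteases Lgmn and Tpp1, and Gla, Glb1, Gaa, Hexa, Neu1, Naglu and Asah1, which cut sugars and lipids. The study asked how FGF signaling acts on NC cells and what Yap and Taz have to do with it, and measured polyadenylated RNA in bulk in 18 libraries, 3 for each of 6 groups. All cells carried the wildtype genotype of the line and grew in osteoblast differentiation medium. The Ctrl+vehicle cells had a control siRNA (siCtrl) and no FGF2, the Ctrl+FGF2 cells had siCtrl with FGF2, and the Y/T dKD+FGF2 cells had an siRNA pool against Yap and Taz (siY/T) with FGF2. Each group was taken at d2.5 and at d5. No group had siY/T without FGF2, so the knockdown is read only under FGF2, and each day was its own batch in the labels, so time and batch cannot be told apart. Nothing in the labels says that the 3 replicates came from separate cultures, so p-values measure the spread between these libraries, which may be technical.

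Lysosomes are acid compartments in which hydrolases break down proteins, lipids and sugars. A proton pump of many subunits, the V-ATPase, acidifies them, and heavily glycosylated membrane proteins such as Lamp1 and Lamp2 line them. Autophagy wraps cytoplasm in a membrane that then fuses with the lysosome, and Tfeb, Tfe3 and Mitf, related basic helix-loop-helix factors, are known to switch on genes of both systems through E-box sites in their promoters. Ctsk is best known as the collagen-cutting protease of osteoclasts.

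Counts on genes per library were between 10377151 and 14698525. Yap1 RNA under siY/T was 51.5% of its Ctrl+FGF2 level at d2.5 and 46.0% at d5, and Wwtr1, the gene of Taz, was 60.8% and 57.5%, so the knockdown was partial. At d2.5 Wwtr1 was 1.57-fold higher in Ctrl+FGF2 than in Ctrl+vehicle. With Y/T dKD+FGF2 it was then at 95.6% of Ctrl+vehicle, with overlapping libraries, while Yap1 was at 44.0%. The mesenchymal and osteoblast gene Col1a1 was high in every group (means of 2009 to 31912 CPM, counts scaled to each library's total). Of the 11 macrophage markers, 10 stayed under 1 CPM in every library. The other, Csf1r, had group means of 0.0519 to 1.27 CPM, and all 11 together summed to between 0.311 and 1.63 CPM. Of the 9 osteoclast markers, 5 (Acp5, Ocstamp, Dcstamp, Calcr, Oscar) stayed under 1 CPM everywhere, and the other 4 were detected, with group means of 29.2 to 47.0 CPM for Nfatc1, 2.25 to 107 for Itgb3, 3.80 to 7.68 for Tnfrsf11a and 0.187 to 4.25 for Mmp9. The osteoclast list summed to between 37.8 and 154 CPM per library. Of the 6 melanocyte markers, Dct, Tyr, Tyrp1 and Sox10 had 0 counts in all libraries. Group means were 0.187 to 0.897 CPM for Pmel and 0.0276 to 3.94 for Mlana.

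At d2.5 the lysosome and autophagy genes were mostly lower with FGF2, and at d5 they had no common direction. Of the 37 members that passed the filter on low counts at d2.5, 28 fell and 5 rose in Ctrl+FGF2 against Ctrl+vehicle (adjusted p under 0.05), where 34.1% and 33.5% of all tested genes did. The members' median log2 fold change was -0.42, against 0.0022 over all genes tested, and log2 fold changes of single genes are given below ± SE. In bulk RNA, fewer cells that express a gene and less RNA per cell cannot be told apart. At d5, 15 of 39 members fell and 8 rose with FGF2, where 23.7% and 23.5% of all genes did, and the median was -0.059. With the knockdown (Y/T dKD+FGF2 against Ctrl+FGF2), 12 of 37 fell and 3 rose at d2.5, against 13.6% and 10.8% of all genes, and the median was -0.054. At d5 the knockdown raised 13 of 39 and lowered 5, against 15.6% and 16.1% of all genes, with a median of 0.053. The FGF2 and knockdown comparisons of a day share the Ctrl+FGF2 libraries, so their values are not independent. Ctss was not tested on either day, and Ctsk and Atp6v0d2 were not tested at d2.5.

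**Figure D1:**
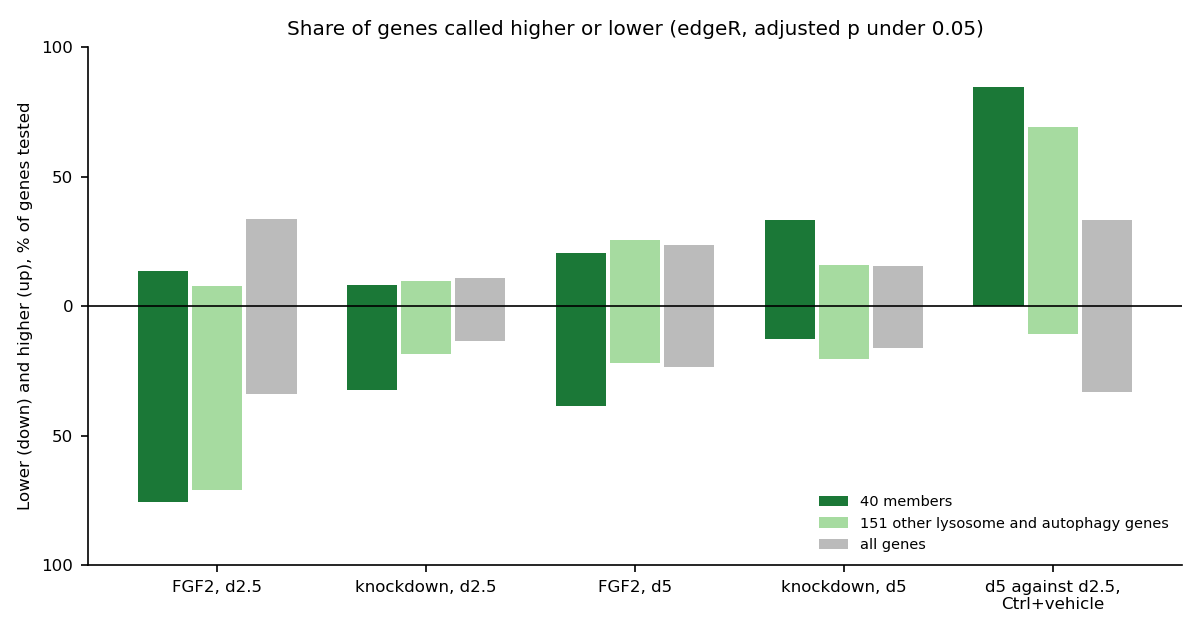
Share of the tested genes called higher (bars up) or lower (bars down) in 5 comparisons, in % of the genes tested, for the 40 members, 151 other lysosome and autophagy genes and all genes. The members and the other lysosome and autophagy genes stand well below the line for FGF2 at d2.5 and well above it for d5 against d2.5 in Ctrl+vehicle, while all genes split about evenly.

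Most other listed genes of the system were also lower with FGF2 at d2.5. They were listed with earlier results of these data known, so they are not an independent check. A hand-written list of 151 other lysosome and autophagy genes, in 6 groups (hydrolases, membrane proteins, proton pump, autophagy, sorting of lysosomal proteins, and mTORC1 with its regulators), had 145 tested at d2.5, of which 103 fell and 11 rose with FGF2 (median -0.32), 71.0% and 7.59% against 34.1% and 33.5% of all genes. In the single groups, 27 of 37 other hydrolases, 22 of 26 membrane proteins, 10 of 15 pump subunits and 31 of 45 autophagy genes fell. Of the mTORC1 genes, the kinase complex that holds autophagy back when nutrients are plentiful, 8 of 16 fell. At d5 the other genes split, with 37 of 146 higher and 32 lower with FGF2 (median 0.013), shares of 25.3% and 21.9% that are close to the 23.5% and 23.7% of all genes. The knockdown raised 14 and lowered 27 at d2.5, and raised 23 and lowered 30 at d5 (medians -0.057 and -0.016). As shares of the list these were 9.66% and 18.6% at d2.5 and 15.8% and 20.5% at d5, beside the 10.8% and 13.6%, and the 15.6% and 16.1%, of all genes. At d5, 6 of 16 other pump subunits rose and none fell, while 12 of 45 autophagy genes fell and 2 rose (edgeR, where at an unadjusted p under 0.05 the count of lower pump subunits was 1). Of the other hydrolases, 5 of 37 rose and 10 fell with the knockdown at d5. Of the other membrane proteins, 7 of 26 rose and 3 fell.

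**Figure D2:**
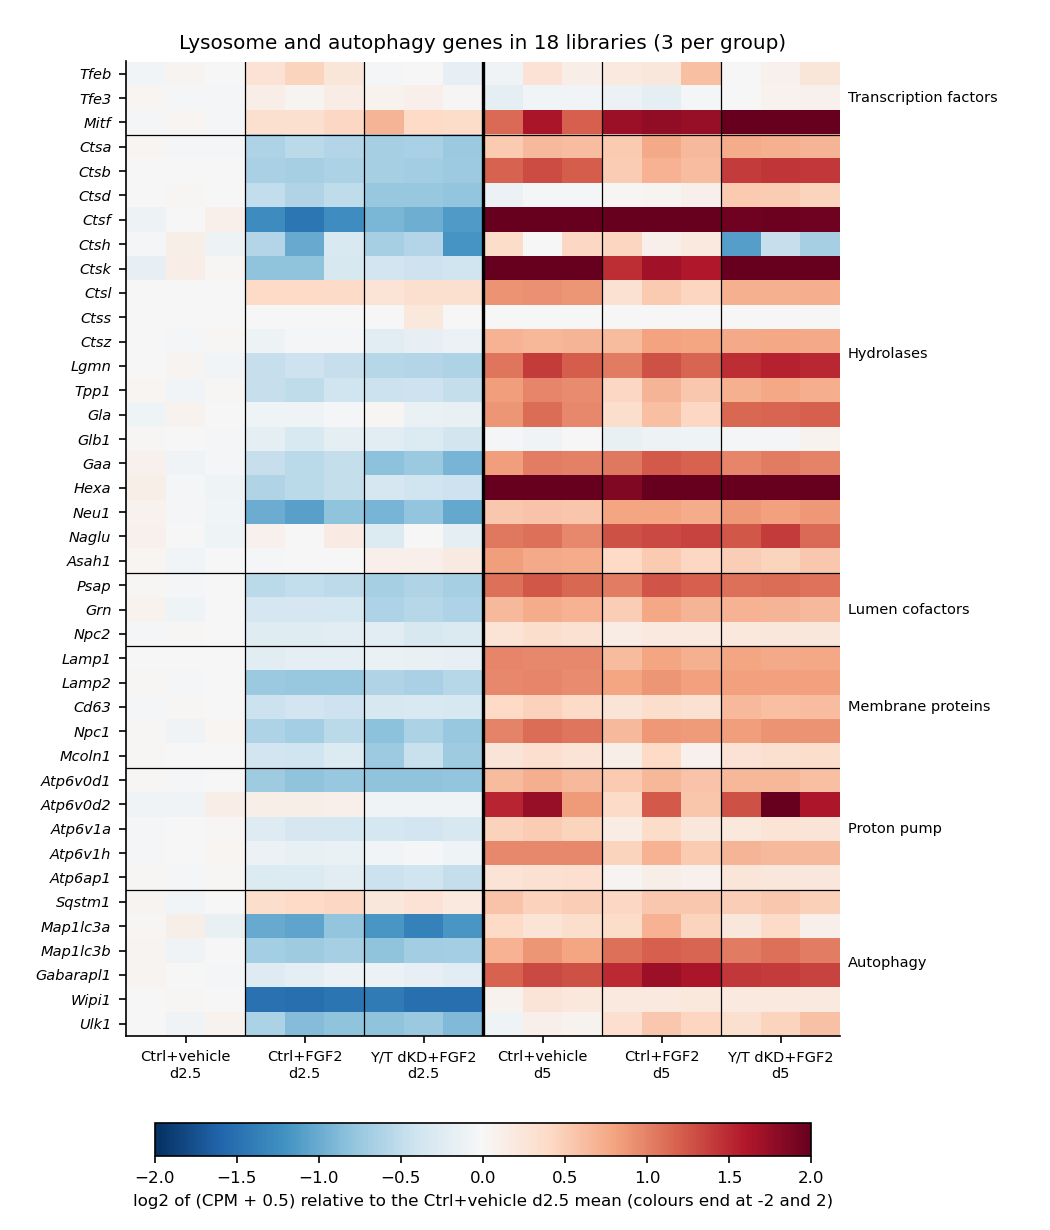
Level of each of the 40 members (rows, by role) in each of the 18 libraries (columns, 3 per group), as log2 of CPM + 0.5 relative to the Ctrl+vehicle d2.5 mean, with colours ending at -2 and 2. At d2.5 most rows are blue in both FGF2 groups, and at d5 most rows are red in all 3 groups; 23 values lie above the colour limit and 0 below.

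Compared per length (CPM per kb of merged exons), Psap, the precursor of the saposins that help hydrolases reach lipids, was the most abundant member over the 6 groups, at 371 in Ctrl+vehicle at d2.5 and 833 at d5. Lamp1 came next (298 and 583), then the autophagy receptor Sqstm1 (144 and 205) and the protease Ctsb (123 and 289.6). The factors were low, with Tfe3 at 7.19, Mitf at 2.67 and Tfeb at 1.30 CPM per kb in Ctrl+vehicle at d2.5. Ctss, a protease of immune cells, had a single count, in Y/T dKD+FGF2 replicate 2 at d2.5, and none in the other libraries. All further levels are CPM, which does not allow levels to be compared between genes.

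The 3 factors rose with FGF2 at d2.5, unlike most members, where 33.5% of all genes rose. Tfeb was at 7.11, 7.68 and 7.34 CPM in Ctrl+vehicle, at 9.09, 10.3 and 8.82 in Ctrl+FGF2 and at 7.29, 7.31 and 6.55 with Y/T dKD+FGF2 on d2.5. At d5 Tfeb was at 7.04, 9.08 and 8.17 CPM in Ctrl+vehicle, at 8.55, 8.71 and 11.5 in Ctrl+FGF2 and at 7.40, 7.89 and 8.86 with Y/T dKD+FGF2. The Ctrl+FGF2 libraries at d2.5 lay above the other 6, with a rise with FGF2 (log2 fold change 0.33 ± 0.11, adjusted p = 0.00938) and a fall with the knockdown (log2 fold change -0.42 ± 0.12, adjusted p = 0.00758), while at d5 the groups overlapped. Both calls were lost without Ctrl+FGF2 replicate 2, with adjusted p of 0.0595 and 0.0511. Tfe3 was at 68.4, 65.6 and 65.8 CPM in Ctrl+vehicle, at 73.1, 69.0 and 74.2 in Ctrl+FGF2 and at 70.1, 71.6 and 68.1 with Y/T dKD+FGF2 on d2.5. At d5 Tfe3 was at 58.1, 64.1 and 63.9 CPM in Ctrl+vehicle, at 61.5, 58.3 and 65.4 in Ctrl+FGF2 and at 66.3, 70.3 and 70.7 with Y/T dKD+FGF2. Its changes were small, a rise of 0.10 ± 0.045 (log2, SE) with FGF2 at d2.5 (adjusted p = 0.0438), lost under 10 of 17 alternatives, and a rise with the knockdown at d5 (log2 fold change 0.16 ± 0.055, adjusted p = 0.036), lost under 6 of 17.

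Mitf (ENSMUSG00000035158.15, chromosome 6, 97807052 to 98021349, GRCm38), the family member known from pigment cells and osteoclasts, changed most. It was at 16.3, 17.0 and 16.4 CPM in Ctrl+vehicle, at 20.7, 20.8 and 22.3 in Ctrl+FGF2 and at 26.8, 22.1 and 21.4 with Y/T dKD+FGF2 on d2.5. At d5 it was at 37.0, 52.2 and 38.4 CPM in Ctrl+vehicle, at 55.4, 57.7 and 56.3 in Ctrl+FGF2 and at 83.5, 77.6 and 82.3 with Y/T dKD+FGF2, and the 3 groups stood apart in that order with no overlap. FGF2 raised it at both days (log2 fold changes 0.35 ± 0.083 and 0.41 ± 0.09), and the knockdown raised it further at d5 (log2 fold change 0.52 ± 0.083, adjusted p = 0.000112), for a total of 1.90-fold over Ctrl+vehicle. At d2.5 the knockdown change was 0.13 ± 0.079 (adjusted p = 0.256), and the change differed between days by 0.38 ± 0.13 (adjusted p = 0.03). Beside Mitf, the melanocyte gene Mlana reached means of 3.94, 3.26 and 2.86 CPM in Ctrl+vehicle, Ctrl+FGF2 then Y/T dKD+FGF2 at d5, with Dct, Tyr, Tyrp1 and Sox10 at 0. Pmel, the remaining melanocyte marker, had means of 0.416, 0.897 and 0.557 CPM in the same groups. The osteoclast markers summed to between 102 and 113 CPM in the Ctrl+FGF2 libraries at d5 and between 149 and 154 in those of Y/T dKD+FGF2, of which the integrin gene Itgb3 made up 63.0 and 107 on average, with Acp5, Ocstamp, Dcstamp, Calcr and Oscar under 1 CPM.

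Promoter sequences are shown for the E-box CACGTG, the core of the site that Tfeb, Tfe3 and Mitf are known to bind and that other basic helix-loop-helix factors share. RefSeq windows of GRCm38.p6, from 250 bases before to 50 after the start site, were at hand for 33 of the 40 members (not for Atp6v1h, Atp6v0d2, Npc1, Ctsb, Ctsh, Asah1 and Map1lc3a). The motif reads the same on both strands, and 13 of 33 members (39.4%) held it, against 8.09% of 27025 genes with windows and 23 of 122 (18.9%) of the other lysosome and autophagy genes. The holders were Ctsa, Ctsd, Ctsf, Ctsl, Lgmn, Gla, Glb1, Gaa, Naglu, Lamp1, Mcoln1, Atp6v0d1 and Atp6v1a. The longer form TCACGTG, searched on both strands, was in 11 of 33 (33.3%) against 4.29% of all, CACGTG with GT before it and AC after it in 0 of 33 against 0.37%, and GGAATG, the core of the Tead site through which Yap and Taz act, in 6 of 33 (18.2%) against 16.6%. The stretches below hold the matches of 7 members, each read 5′ to 3′ along its gene with a few bases on either side of the matches, and with the E-box in capitals. Lamp1 is shown for its 4 matches, which begin at -61, -45, -28 and -15 from the start site, Mcoln1 and Gla for their 2 each, Ctsd for 2 that lie far apart, at -98 and -245, Naglu and Ctsf for a single match each, and Atp6v0d1 for a match that crosses it, from -3.
Lamp1: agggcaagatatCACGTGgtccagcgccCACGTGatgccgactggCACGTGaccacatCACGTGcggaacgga
Mcoln1: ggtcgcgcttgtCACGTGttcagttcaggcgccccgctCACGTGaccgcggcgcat
Gla: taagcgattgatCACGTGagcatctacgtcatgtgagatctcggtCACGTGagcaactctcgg
Ctsd (-98): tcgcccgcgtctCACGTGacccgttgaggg
Ctsd (-245): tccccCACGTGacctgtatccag
Naglu: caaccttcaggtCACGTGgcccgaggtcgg
Ctsf: caccccgtggtcCACGTGcctcgcgtaaat
Atp6v0d1: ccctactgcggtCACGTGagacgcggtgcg
They lie at chr8:13159088-13159160, chr8:3500436-3500491, chr11:101070009-101070038 and chr19:4855074-4855103 on the plus strand, and at chrX:134601182-134601244, chr7:142387908-142387937, chr7:142388055-142388077 and chr8:105566050-105566079 on the minus strand. With FGF2 at d2.5 the 13 members with the motif had a median log2 fold change of -0.37 (10 fell), and the 18 tested members whose windows lacked it had -0.39 (13 fell). From d2.5 to d5 in Ctrl+vehicle the medians were 0.90 with the motif and 0.69 without. These are descriptions of the letters in a short window, and no binding was measured.

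Most hydrolases were lower with FGF2 at d2.5. Of 16 tested, 11 fell, 1 rose (Ctsl) and 4 were not called (Ctsz, Gla, Naglu, Asah1), where 34.1% of all genes fell and 33.5% rose. Their summed level was 2588, 2525 and 2536 CPM in the Ctrl+vehicle libraries, 2150.4, 2142 and 2172 in Ctrl+FGF2 and 2057, 2073 and 2042 with Y/T dKD+FGF2, with no overlap between the groups. At d5 the sums were 5016, 5337 and 5109 CPM in Ctrl+vehicle, 3778, 4304 and 4065 in Ctrl+FGF2 and 5256, 5339 and 5273 with Y/T dKD+FGF2, so that Ctrl+FGF2 lay below both other groups. The sum weighs Ctsb and Ctsl most and does not stand for the hydrolases as a class. At d5 Ctsb and Ctsl made up 34.0% and 19.2% of it in Ctrl+vehicle and 28.1% and 17.6% in Ctrl+FGF2. With Y/T dKD+FGF2 they made up 37.7% and 16.5%. With FGF2 at d5, 7 of 17 hydrolases fell (Ctsb, Ctsk, Ctsl, Tpp1, Gla, Hexa, Asah1) and 4 rose (Ctsd, Gaa, Neu1, Naglu). These are 41.2% and 23.5%, where 23.7% and 23.5% of all genes did, so the share that rose was that of all genes. With the knockdown at d5, 8 rose (Ctsb, Ctsd, Ctsk, Ctsl, Lgmn, Tpp1, Gla, Hexa) and 3 fell (Ctsf, Ctsh, Gaa), where 15.6% and 16.1% of all genes did. The other hydrolases did not share this direction, as 5 of 37 rose and 10 fell.

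Ctsb (ENSMUSG00000021939.8, chromosome 14, 63122462 to 63145923, GRCm38), a cysteine protease, was the most abundant hydrolase per length on average over the 6 groups. It was at 750.4, 749 and 742 CPM in Ctrl+vehicle, at 478, 473 and 482 in Ctrl+FGF2 and at 469.7, 462 and 452 with Y/T dKD+FGF2 on d2.5. At d5 Ctsb was at 1698, 1838 and 1722 CPM in Ctrl+vehicle, at 1060.2, 1207 and 1141 in Ctrl+FGF2 and at 1976, 2019 and 1981 with Y/T dKD+FGF2. FGF2 lowered it 1.58-fold at d2.5 and 1.53-fold at d5 (log2 fold change -0.61 ± 0.043, adjusted p = 4.13e-09). The knockdown raised it 1.75-fold at d5 (log2 fold change 0.80 ± 0.043, adjusted p = 2.63e-10), to above every Ctrl+vehicle library. At d2.5 its knockdown change was -0.059 ± 0.029 (adjusted p = 0.146), and the difference between days was 0.86 ± 0.053 (adjusted p = 1.15e-12).

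Gla, the galactosidase that is lost in Fabry disease, was not called at d2.5 and followed the order of Ctsb at d5. Its libraries stood at 33.5, 37.3 and 35.9 CPM in Ctrl+vehicle, at 33.5, 33.6 and 35.0 in Ctrl+FGF2 and at 36.1, 32.4 and 32.0 with Y/T dKD+FGF2 on d2.5, where all 3 groups overlapped. At d5 they stood at 65.7, 77.8 and 69.7 CPM in Ctrl+vehicle, at 45.4, 54.4 and 47.4 in Ctrl+FGF2 and at 79.3, 80.3 and 81.8 with Y/T dKD+FGF2, a fall with FGF2 (log2 fold change -0.52 ± 0.068, adjusted p = 5.84e-06) and a 1.63-fold rise with the knockdown (log2 fold change 0.70 ± 0.067, adjusted p = 2.78e-07). Ctsl, a cysteine protease, was the only hydrolase to rise with FGF2 at d2.5 (log2 fold change 0.39 ± 0.029, adjusted p = 3.96e-13) and fell at d5 (log2 fold change -0.46 ± 0.044, adjusted p = 1.85e-07), and its knockdown change was -0.10 ± 0.029 at d2.5 and 0.29 ± 0.044 at d5, both called. Hexa, Tpp1 and Asah1 had FGF2 changes of -0.41 ± 0.049, -0.35 ± 0.053 and -0.32 ± 0.042 at d5 and knockdown changes of 0.29 ± 0.049, 0.18 ± 0.053 and 0.038 ± 0.042, the last not called.

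Ctsk (ENSMUSG00000028111.4, chromosome 3, 95499256 to 95509362, GRCm38) showed the widest range of any member. At d2.5 it had 16 counts in the 3 Ctrl+vehicle libraries together, 3 in Ctrl+FGF2 and 6 with Y/T dKD+FGF2. At d5 its libraries stood at 45.5, 46.7 and 47.7 CPM in Ctrl+vehicle, at 1.93, 2.28 and 2.16 in Ctrl+FGF2 and at 6.38, 5.98 and 7.84 with Y/T dKD+FGF2, with wide gaps between the groups. In counts, Ctrl+FGF2 at d5 (73) was 21.9-fold below Ctrl+vehicle (1544), with a 95% interval of 17.3 to 28.1 for counting error only, and the fit gave log2 fold change -4.43 ± 0.11, adjusted p = 2.19e-14. The knockdown raised it 3.11-fold (log2 fold change 1.64 ± 0.16, adjusted p = 4.08e-07), to a level still 6.94-fold below Ctrl+vehicle. Of the 9 osteoclast markers, Acp5, Ocstamp, Dcstamp, Calcr and Oscar were at most 0.179 CPM as a group mean at d5. In Ctrl+vehicle, Ctrl+FGF2 then Y/T dKD+FGF2 at d5 the means were 33.5, 34.2 and 35.3 CPM for Nfatc1, 52.1, 63.0 and 107 for Itgb3, 4.65, 6.42 and 3.80 for Tnfrsf11a, and 0.923, 3.05 and 4.25 for Mmp9. The whole list summed to 79.0 to 102 CPM in Ctrl+vehicle, the group where Ctsk was highest, and its part in the level of Ctsk was not tested.

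Ctsd, the main aspartic protease, fell with FGF2 at d2.5 and rose with the knockdown at d5. It was at 165, 168 and 164 CPM in Ctrl+vehicle, at 117, 109 and 116 in Ctrl+FGF2 and at 97.3, 97.8 and 95.7 with Y/T dKD+FGF2 on d2.5. At d5 Ctsd was at 152, 161 and 162 CPM in Ctrl+vehicle, at 169, 171 and 178 in Ctrl+FGF2 and at 239, 235 and 227 with Y/T dKD+FGF2. The 3 groups did not overlap on either day, but their order turned: FGF2 and then siY/T lowered it at d2.5 (-0.55 ± 0.037 and -0.25 ± 0.04, log2) and both raised it at d5 (0.14 ± 0.041 and 0.43 ± 0.04). Lgmn, an asparagine-specific protease, was at 84.3, 87.9 and 81.6 CPM in Ctrl+vehicle, at 61.1, 63.3 and 61.4 in Ctrl+FGF2 and at 56.6, 56.4 and 55.0 with Y/T dKD+FGF2 on d2.5. At d5 Lgmn was at 178, 225 and 196 CPM in Ctrl+vehicle, at 174, 205 and 191 in Ctrl+FGF2 and at 236, 248 and 243 with Y/T dKD+FGF2. FGF2 lowered it at d2.5 (log2 fold change -0.46 ± 0.044, adjusted p = 1.04e-10), and at d5 the Y/T dKD+FGF2 libraries lay above the other 6 (log2 fold change 0.34 ± 0.065, adjusted p = 0.000577). For Ctsd and Lgmn the knockdown change differed between days by 0.67 ± 0.055 and 0.49 ± 0.089 (adjusted p = 5.92e-10 and 0.00015).

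Gaa, Neu1, Ctsa and Ctsf were lower with FGF2 at d2.5 but not at d5. Gaa, which breaks down glycogen, was at 178, 159 and 165 CPM in Ctrl+vehicle, at 121, 115 and 119.7 in Ctrl+FGF2 and at 94.1, 100.3 and 87.8 with Y/T dKD+FGF2 on d2.5. At d5 Gaa was at 298, 340.4 and 335 CPM in Ctrl+vehicle, at 347, 392 and 379 in Ctrl+FGF2 and at 328, 346 and 334 with Y/T dKD+FGF2. It stepped down over the 3 groups at d2.5 (-0.51 ± 0.044 with FGF2, -0.34 ± 0.048 with the knockdown, both called) and rose with FGF2 at d5 (log2 fold change 0.21 ± 0.05, adjusted p = 0.00194). Neu1, which removes sialic acid, was at 38.5, 35.8 and 35.3 CPM in Ctrl+vehicle, at 18.1, 17.0 and 20.6 in Ctrl+FGF2 and at 18.9, 20.9 and 17.8 with Y/T dKD+FGF2 on d2.5. At d5 Neu1 was at 53.3, 54.4 and 53.9 CPM in Ctrl+vehicle, at 63.7, 63.8 and 61.2 in Ctrl+FGF2 and at 66.7, 65.1 and 66.8 with Y/T dKD+FGF2. It fell 1.98-fold with FGF2 at d2.5 and rose 1.18-fold at d5, in each case with no overlap, and its knockdown changes were not called. Ctsa, the protective protein that holds Neu1 and Glb1 in a complex, was at 229.9, 219.6 and 221 CPM in Ctrl+vehicle, at 146, 153 and 148 in Ctrl+FGF2 and at 141, 143 and 134 with Y/T dKD+FGF2 on d2.5. At d5 Ctsa was at 321, 352 and 342 CPM in Ctrl+vehicle, at 321, 378 and 351 in Ctrl+FGF2 and at 373, 365 and 359 with Y/T dKD+FGF2. Its fall at d2.5 was 1.51-fold (log2 fold change -0.60 ± 0.036, adjusted p = 1.84e-15), and at d5 Ctrl+vehicle and Ctrl+FGF2 overlapped. Glb1, a galactosidase, fell by less at d2.5 (log2 fold change -0.24 ± 0.052, adjusted p = 0.000183).

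Ctsf, a cysteine protease, was at 7.94, 8.58 and 9.27 CPM in Ctrl+vehicle, at 3.31, 2.84 and 3.34 in Ctrl+FGF2 and at 4.31, 4.12 and 3.63 with Y/T dKD+FGF2 on d2.5. At d5 Ctsf was at 40.7, 45.0 and 37.8 CPM in Ctrl+vehicle, at 41.6, 47.0 and 42.5 in Ctrl+FGF2 and at 34.5, 34.8 and 34.5 with Y/T dKD+FGF2. It fell 2.72-fold with FGF2 at d2.5, on 136 against 368 counts, and with the knockdown at d5 it fell by a log2 of 0.34 ± 0.069. Ctsh, an aminopeptidase, was low, at 3.80, 4.19 and 3.56 CPM in Ctrl+vehicle, at 2.39, 1.67 and 3.01 in Ctrl+FGF2 and at 2.24, 2.41 and 1.42 with Y/T dKD+FGF2 on d2.5. At d5 Ctsh was at 5.13, 3.83 and 5.30 CPM in Ctrl+vehicle, at 5.33, 4.15 and 4.49 in Ctrl+FGF2 and at 1.53, 2.66 and 2.24 with Y/T dKD+FGF2. It was one of the few hydrolases that fell with the knockdown at d5, 2.17-fold (log2 fold change -1.12 ± 0.22, adjusted p = 0.000653), from 159 to 72 counts over 3 libraries, and it had fallen with FGF2 at d2.5 (-0.71 ± 0.20). Naglu, which takes part in the breakdown of heparan sulfate, rose with FGF2 at d5 (log2 fold change 0.29 ± 0.068, adjusted p = 0.0019) and passed no other FGF2 or knockdown test. Ctsz, a carboxypeptidase, passed none of these tests.

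**Figure D3:**
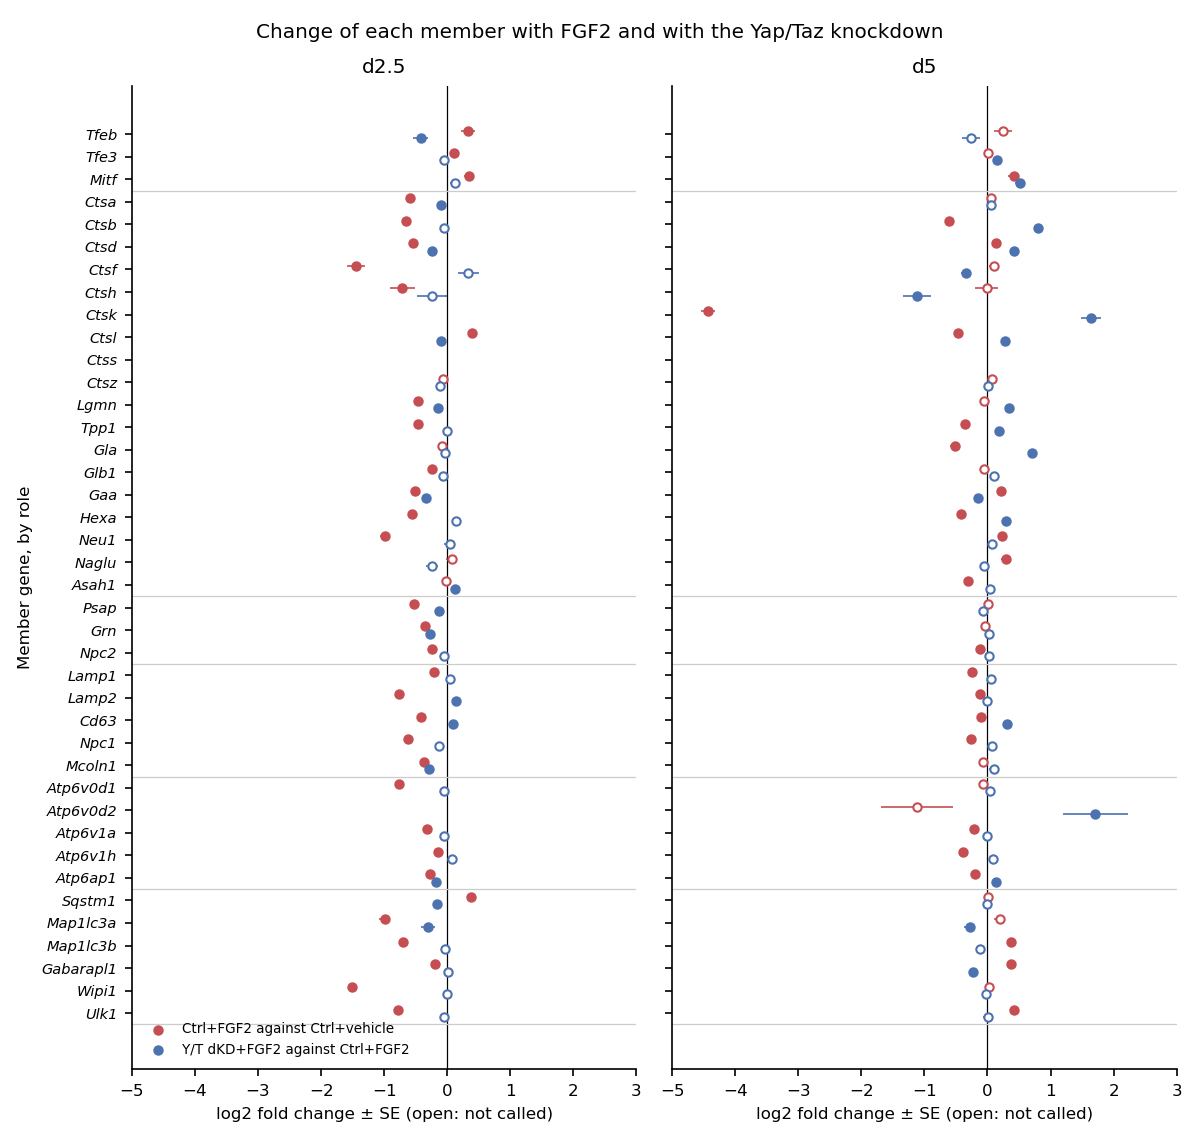
log2 fold change with its SE of each tested member (rows, by role) for FGF2 (red) and for the knockdown (blue) at d2.5 (left) and d5 (right); open points were not called. At d2.5 nearly all red points lie left of 0, whereas at d5 the red points straddle 0. At d5 Atp6v0d2 (on few counts), Ctsk, Ctsb and Gla have blue points well to the right, and Ctsh has one well to the left.

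The lumen cofactors fell together with FGF2 at d2.5, where 34.1% of all genes fell. Psap was at 1036, 996 and 1024 CPM in Ctrl+vehicle, at 702, 724 and 710.3 in Ctrl+FGF2 and at 642, 672 and 641 with Y/T dKD+FGF2 on d2.5. At d5 Psap was at 2184, 2421 and 2252 CPM in Ctrl+vehicle, at 2065, 2443 and 2325 in Ctrl+FGF2 and at 2188, 2208 and 2167 with Y/T dKD+FGF2. Grn, the precursor of the granulins, was at 361, 326 and 348 CPM in Ctrl+vehicle, at 273, 273 and 269.7 in Ctrl+FGF2 and at 224, 232 and 224 with Y/T dKD+FGF2 on d2.5. At d5 Grn was at 542, 579.8 and 559 CPM in Ctrl+vehicle, at 484, 587 and 555 in Ctrl+FGF2 and at 559.8, 554 and 539.7 with Y/T dKD+FGF2. At d2.5 both went down from Ctrl+vehicle to Ctrl+FGF2 (-0.53 ± 0.03 and -0.35 ± 0.035) and again to Y/T dKD+FGF2 (-0.14 ± 0.03 and -0.27 ± 0.036), with no overlap, all 4 called. At d5 all 3 groups overlapped for both genes. Npc2, which carries cholesterol inside the lysosome, fell with FGF2 by less, -0.25 ± 0.032 at d2.5 and -0.12 ± 0.034 at d5.

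All 5 membrane proteins fell with FGF2 at d2.5, and 4 of them at d5, where 34.1% and 23.7% of all genes fell. Lamp1 (ENSMUSG00000031447.7, chromosome 8, 13159161 to 13175338, GRCm38) was at 802, 794 and 795 CPM in Ctrl+vehicle, at 683, 695 and 696 in Ctrl+FGF2 and at 727, 718 and 709 with Y/T dKD+FGF2 on d2.5. At d5 Lamp1 was at 1566, 1554 and 1558 CPM in Ctrl+vehicle, at 1235, 1377 and 1306 in Ctrl+FGF2 and at 1374, 1344 and 1364 with Y/T dKD+FGF2. Its falls with FGF2 were of like size on both days (-0.22 ± 0.028 and -0.24 ± 0.038, a difference of -0.05 ± 0.046, adjusted p = 0.358), and the knockdown changes were not called. Lamp2, needed for the fusion of autophagosomes, was at 803, 777 and 798 CPM in Ctrl+vehicle, at 475, 467 and 469 in Ctrl+FGF2 and at 521, 508 and 535 with Y/T dKD+FGF2 on d2.5. At d5 Lamp2 was at 1543, 1557 and 1523 CPM in Ctrl+vehicle, at 1372, 1459.8 and 1400.2 in Ctrl+FGF2 and at 1407, 1396 and 1403 with Y/T dKD+FGF2. It fell 1.70-fold with FGF2 at d2.5, and the Y/T dKD+FGF2 libraries lay a little above Ctrl+FGF2 (log2 fold change 0.14 ± 0.03, adjusted p = 0.000901). At d5 its fall with FGF2 was -0.12 ± 0.033, smaller than at d2.5 (difference 0.62 ± 0.043, adjusted p = 2.2e-13).

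Npc1, the membrane partner of Npc2 in cholesterol export, was at 115, 108 and 116 CPM in Ctrl+vehicle, at 73.5, 70.7 and 77.7 in Ctrl+FGF2 and at 63.9, 72.6 and 66.9 with Y/T dKD+FGF2 on d2.5. At d5 Npc1 was at 224, 244 and 239 CPM in Ctrl+vehicle, at 177, 206 and 205 in Ctrl+FGF2 and at 201, 210.2 and 210 with Y/T dKD+FGF2. It fell with FGF2 on both days (-0.62 ± 0.047 and -0.25 ± 0.051). Mcoln1, the calcium channel of the lysosome, was at 37.1, 36.5 and 36.6 CPM in Ctrl+vehicle, at 28.0, 27.7 and 30.3 in Ctrl+FGF2 and at 21.9, 26.8 and 22.3 with Y/T dKD+FGF2 on d2.5. At d5 Mcoln1 was at 43.8, 46.6 and 44.3 CPM in Ctrl+vehicle, at 39.8, 48.8 and 39.0 in Ctrl+FGF2 and at 45.0, 46.2 and 46.8 with Y/T dKD+FGF2. It stepped down over the groups at d2.5 (-0.37 ± 0.066 and -0.29 ± 0.073, both called), and at d5 all groups overlapped. The tetraspanin Cd63 fell with FGF2 on both days (-0.42 ± 0.03 and -0.098 ± 0.035) and rose with the knockdown on both (0.088 ± 0.03 and 0.31 ± 0.035). A pseudogene copy of Cd63 is annotated, and reads that fit several places were not counted, so its level is uncertain.

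**Figure D4:**
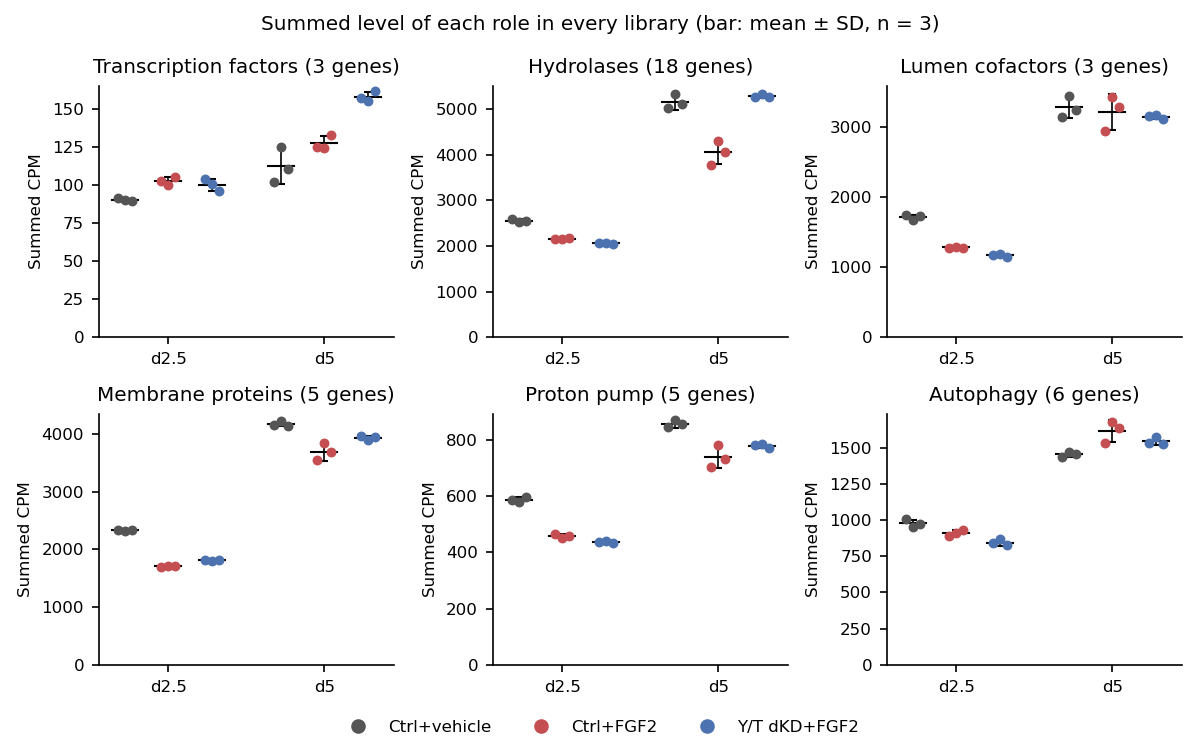
Summed CPM of the members of each role in every library (points), with the mean and SD of 3 libraries, by day and group. At d2.5 both FGF2 groups lie below Ctrl+vehicle in every panel but the transcription factors, and at d5 the hydrolase sum is lowest in Ctrl+FGF2 while the autophagy sum is highest there on average.

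Of the proton pump genes, the 4 that were tested at d2.5 fell with FGF2, where 34.1% of all genes fell. Atp6v0d1, a subunit of the membrane part, was at 139, 132 and 137 CPM in Ctrl+vehicle, at 82.8, 78.0 and 80.2 in Ctrl+FGF2 and at 77.8, 77.3 and 78.6 with Y/T dKD+FGF2 on d2.5. At d5 Atp6v0d1 was at 211, 225 and 213 CPM in Ctrl+vehicle, at 195, 216 and 202 in Ctrl+FGF2 and at 215, 215 and 206 with Y/T dKD+FGF2. It fell 1.71-fold at d2.5 (log2 fold change -0.77 ± 0.039, adjusted p = 2.91e-17), while at d5 all 3 groups overlapped. Atp6v1a and Atp6v1h, subunits of the part that splits ATP, and the accessory protein Atp6ap1 fell by less at d2.5 (-0.33 ± 0.036, -0.15 ± 0.043 and -0.27 ± 0.036) and again at d5 (-0.21 ± 0.046, -0.39 ± 0.051 and -0.20 ± 0.035). The knockdown change of Atp6ap1 was -0.19 ± 0.037 at d2.5 and 0.14 ± 0.035 at d5, both called and of opposite sign (difference 0.32 ± 0.051, adjusted p = 2.55e-05).

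Atp6v0d2, the form of this subunit best known from osteoclasts, was barely detected. It had 1, 3 and 0 counts in Ctrl+vehicle, Ctrl+FGF2 then Y/T dKD+FGF2 on d2.5, summed over 3 libraries each. At d5 the libraries stood at 1.01, 1.25 and 0.449 CPM in Ctrl+vehicle, at 0.184, 0.733 and 0.269 in Ctrl+FGF2 and at 0.766, 2.16 and 1.12 with Y/T dKD+FGF2. The rise with the knockdown rested on 46 against 14 counts, a ratio of 3.35 (95% interval 1.81 to 6.60, counting error only), with log2 fold change 1.71 ± 0.52, adjusted p = 0.0178. The call was lost without Ctrl+FGF2 replicate 1, without Ctrl+FGF2 replicate 3 and without Y/T dKD+FGF2 replicate 2, with adjusted p up to 0.16.

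Most autophagy members fell with FGF2 at d2.5, and some turned at d5. At d2.5, 5 of 6 fell with FGF2 (Map1lc3a, Map1lc3b, Gabarapl1, Wipi1, Ulk1) and Sqstm1 rose, at a median of -0.74 (log2). Of all genes, 34.1% fell and 33.5% rose. At d5, 3 of 6 rose (Map1lc3b, Gabarapl1, Ulk1) and none fell, where 23.5% and 23.7% of all genes did. Wipi1 (ENSMUSG00000041895.15, chromosome 11, 109573331 to 109611967, GRCm38), a protein that binds the lipid of the forming autophagosome, was at 169.9, 173 and 169 CPM in Ctrl+vehicle, at 60.2, 59.4 and 61.6 in Ctrl+FGF2 and at 63.4, 59.6 and 59.5 with Y/T dKD+FGF2 on d2.5. At d5 Wipi1 was at 179, 204 and 198 CPM in Ctrl+vehicle, at 196, 196 and 198 in Ctrl+FGF2 and at 196, 194 and 195 with Y/T dKD+FGF2. At d2.5 the 6 libraries with FGF2 lay far below the 3 without, a 2.85-fold fall (log2 fold change -1.51 ± 0.04, adjusted p = 1.15e-24), and at d5 all groups overlapped (0.033 ± 0.043, adjusted p = 0.557). The difference between days was 1.52 ± 0.059 (adjusted p = 4.03e-19), and siY/T left no called change on either day (0.0016 ± 0.045 and -0.017 ± 0.043).

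Ulk1, the kinase that starts autophagy, turned direction. It was at 49.1, 47.0 and 51.7 CPM in Ctrl+vehicle, at 31.5, 26.9 and 27.9 in Ctrl+FGF2 and at 27.9, 29.4 and 26.6 with Y/T dKD+FGF2 on d2.5. At d5 Ulk1 was at 46.4, 53.0 and 51.8 CPM in Ctrl+vehicle, at 62.4, 72.1 and 66.6 in Ctrl+FGF2 and at 61.7, 67.4 and 74.4 with Y/T dKD+FGF2. The FGF2 libraries lay below Ctrl+vehicle at d2.5 (log2 fold change -0.79 ± 0.062, adjusted p = 1.38e-12) and above it at d5 (log2 fold change 0.42 ± 0.071, adjusted p = 8.59e-05), with no overlap on either day. Map1lc3b, the LC3 protein that coats autophagosomes, did the same. It was at 169, 156 and 165 CPM in Ctrl+vehicle, at 102, 99.7 and 103 in Ctrl+FGF2 and at 93.8, 101 and 102 with Y/T dKD+FGF2 on d2.5. At d5 Map1lc3b was at 265, 301 and 284 CPM in Ctrl+vehicle, at 352, 377 and 367 in Ctrl+FGF2 and at 336, 350.2 and 334 with Y/T dKD+FGF2, with log2 fold changes with FGF2 of -0.70 ± 0.04 and 0.38 ± 0.043. The differences between days were 1.19 ± 0.10 for Ulk1 and 1.06 ± 0.062 for Map1lc3b (adjusted p = 1.81e-11 and 6.13e-15).

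Map1lc3a, the other LC3 gene, was at 22.5, 23.9 and 19.9 CPM in Ctrl+vehicle, at 10.8, 10.3 and 12.5 in Ctrl+FGF2 and at 9.52, 8.32 and 9.56 with Y/T dKD+FGF2 on d2.5. At d5 Map1lc3a was at 29.3, 26.7 and 28.5 CPM in Ctrl+vehicle, at 28.8, 36.2 and 30.4 in Ctrl+FGF2 and at 25.9, 28.9 and 23.8 with Y/T dKD+FGF2. It fell 1.99-fold with FGF2 at d2.5, and its falls with the knockdown (-0.31 ± 0.11 and -0.28 ± 0.089) were lost under 7 and 3 of 17 alternatives. Gabarapl1, a relative of the LC3 proteins, fell with FGF2 at d2.5 and rose at d5 (-0.19 ± 0.045 and 0.37 ± 0.051), and fell with the knockdown at d5 (-0.23 ± 0.05). Sqstm1, the receptor p62 that is itself degraded by autophagy, was at 503, 467 and 479.9 CPM in Ctrl+vehicle, at 615, 639.7 and 647 in Ctrl+FGF2 and at 565, 591 and 553 with Y/T dKD+FGF2 on d2.5. At d5 Sqstm1 was at 716, 664 and 681 CPM in Ctrl+vehicle, at 646, 706 and 702 in Ctrl+FGF2 and at 682, 701 and 672 with Y/T dKD+FGF2. Alone among the 6 it rose with FGF2 at d2.5 (log2 fold change 0.38 ± 0.033, adjusted p = 1.38e-11) and came partly back with the knockdown (log2 fold change -0.16 ± 0.033, adjusted p = 0.000509), and at d5 all groups overlapped.

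**Figure D5:**
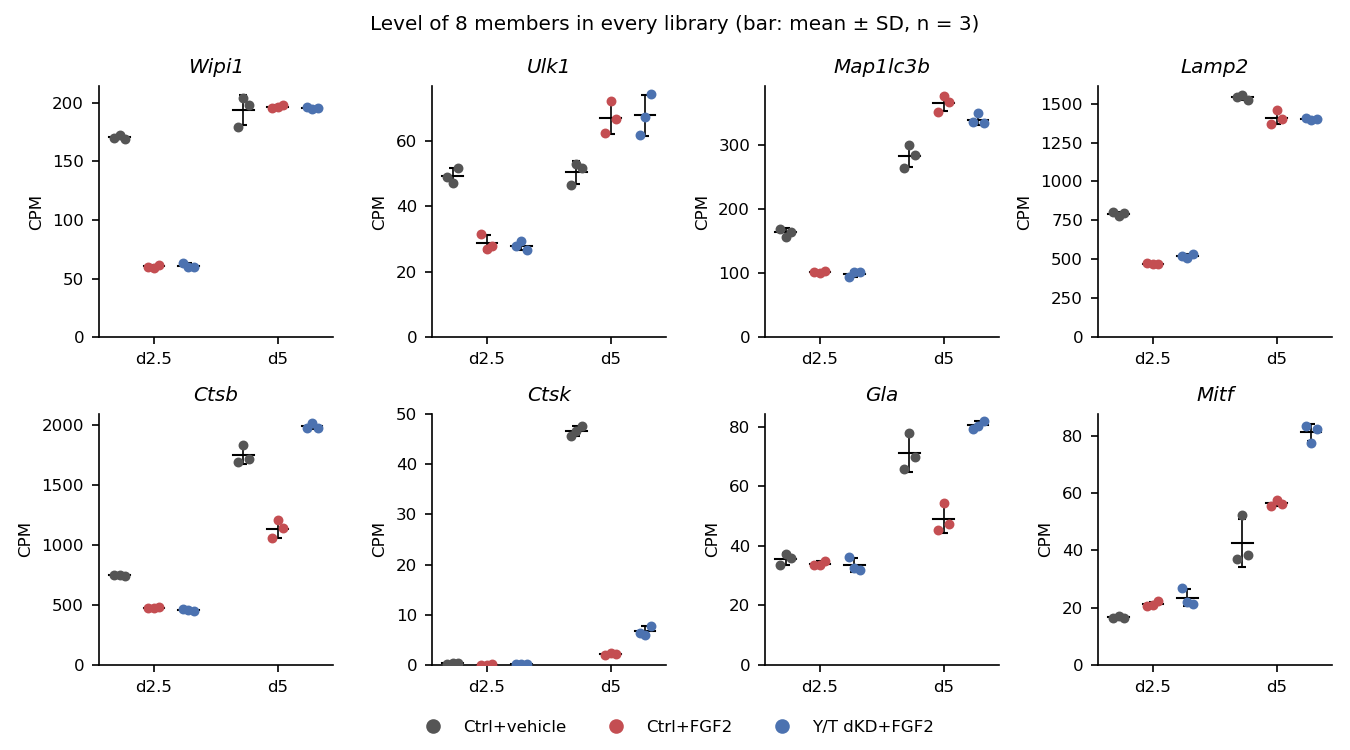
CPM of 8 members in every library (points), with the mean and SD of 3 libraries, by day and group. Wipi1, Ulk1, Map1lc3b and Lamp2 drop with FGF2 at d2.5 whether or not siY/T was given, whereas Ctsb, Ctsk, Gla and Mitf are higher in Y/T dKD+FGF2 than in Ctrl+FGF2 at d5.

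The FGF2 change differed between days for 25 of 39 members in a fit of all 18 libraries, 20 of them more positive at d5 and 5 more negative, where 60.9% of all genes differed (31.8% and 29.1%). A shift of a whole day cancels in this contrast. Of the 28 members that fell at d2.5, 11 also fell at d5 (Ctsb, Tpp1, Hexa, Npc2, Lamp1, Lamp2, Cd63, Npc1, Atp6v1a, Atp6v1h, Atp6ap1), 6 rose (Ctsd, Gaa, Neu1, Map1lc3b, Gabarapl1, Ulk1) and 11 were not called. This split was not counted over all genes, of which 23.7% fell and 23.5% rose with FGF2 at d5. Among the called members the largest differences were those of Wipi1 (1.52 ± 0.059), Ctsf (1.52 ± 0.15), Neu1 (1.20 ± 0.087), Ulk1 (1.19 ± 0.10) and Map1lc3a (1.16 ± 0.13). Ctsl (-0.87 ± 0.053) and Gla (-0.47 ± 0.095) led the opposite direction among the called members, while the larger estimates of Ctsk (-2.19 ± 1.10) and Atp6v0d2 (-2.40 ± 1.64), on few counts, were not called. The osteoblast gene Alpl, which makes alkaline phosphatase, was at means of 115, 0.140 and 0.105 CPM in Ctrl+vehicle, Ctrl+FGF2 then Y/T dKD+FGF2 on d2.5 and at 162, 54.5 and 93.3 at d5. The 7 osteoblast markers had no common direction. With FGF2 at d2.5, Alpl, Ibsp, Sp7 and Runx2 fell (log2 fold changes -9.61 ± 0.17, -2.34 ± 0.042, -2.82 ± 0.10 and -0.84 ± 0.039), Spp1 and Dmp1 rose (0.78 ± 0.026 and 5.25 ± 0.054) and Bglap was not tested. With FGF2 at d5, Alpl, Ibsp and Bglap fell (-1.56 ± 0.091, -1.80 ± 0.19 and -2.78 ± 0.36) and Runx2, Sp7, Spp1 and Dmp1 rose (0.40 ± 0.052, 0.32 ± 0.093, 0.46 ± 0.065 and 1.86 ± 0.23). Their part in the members' levels was not tested.

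The knockdown change differed between days for 15 of 39 members, 12 more positive at d5 and 3 more negative, where 20.9% of all genes differed (11.6% and 9.35%). Hydrolases made up 6 of them, led by Ctsb (0.86 ± 0.053), Gla (0.73 ± 0.096) and Ctsd (0.67 ± 0.055), with Ctsf the other way (-0.68 ± 0.18). Read against Ctrl+vehicle, Y/T dKD+FGF2 had 28 members lower and 4 higher at d2.5 (all genes, 35.7% and 34.1%) and 11 lower and 12 higher at d5 (all genes, 21.1% and 20.7%). At d5 the called members that differed at least 1.5-fold from Ctrl+vehicle were Ctsk (-2.80 ± 0.092), Ctsh (-1.13 ± 0.22) and Mitf (0.93 ± 0.087), where 11.0% of all genes did. This comparison shares its libraries with the other 2 of the day. At d2.5, 8 of the 15 members called with the knockdown were called under every alternative setting, and at d5 13 of 18. For FGF2 these were 31 of 33 at d2.5 and 21 of 23 at d5.

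In Ctrl+vehicle, 33 of 39 members were higher at d5 than at d2.5 and 0 were lower (edgeR, adjusted p under 0.05), where 33.1% and 33.2% of all genes were. Ctsk and Atp6v0d2, among the 33, had too few counts to be tested at d2.5 and were kept here for their d5 counts. They could thus hardly have been called lower. With at least 10 counts in every library, which left both out, 31 of 37 were higher and 0 lower (70.4% of all genes were called). At an unadjusted p under 0.05 the count of lower members was 0, DESeq2 gave 0 lower, and with upper-quartile factors 3 were lower. The members' median log2 fold change was 0.78, against -0.017 over all genes. The summed level of all 40 members went from 8255 ± 104 CPM (SD, n = 3) to 15036 ± 394. Without the TMM factors, their share of a library's counts on genes was 0.859% to 0.881% at d2.5 and 1.33% to 1.37% at d5. 12 members rose at least 2-fold (9.24% of all genes did), among them Ctsk, from 16 to 1544 counts (125-fold, 95% interval 76.8 to 220, counting error only), Hexa (2.41 ± 0.053), Ctsf (2.26 ± 0.084), Mitf (1.37 ± 0.098) and Gabarapl1 (1.26 ± 0.051). Ctsd (-0.062 ± 0.038), Glb1 (-0.039 ± 0.052), Tfe3 (-0.10 ± 0.051), Tfeb (0.14 ± 0.13), Ulk1 (0.039 ± 0.07) and Ctsh (0.29 ± 0.19) were not called. Of the 151 other lysosome and autophagy genes, 101 of 146 were higher and 16 lower. Since each day was a batch, the passage of time and the batch cannot be told apart here.

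Among the 151 other genes, the 3 largest rises and falls of each comparison brought in further hydrolases and receptors. With FGF2 at d2.5 Ctsc, the dipeptidyl peptidase that activates serine proteases, rose 5.77-fold, from 16.8, 15.8 and 16.4 to 94.1, 94.5 and 96.4 CPM, and stood at 113, 115 and 122 in Y/T dKD+FGF2. At d5 it stood at 44.6, 51.4 and 46.7 CPM in Ctrl+vehicle, at 33.0, 35.3 and 34.1 in Ctrl+FGF2 and at 55.9, 61.6 and 58.1 with Y/T dKD+FGF2, a fall with FGF2 (log2 fold change -0.47 ± 0.064, adjusted p = 1.04e-05) and a rise with the knockdown (log2 fold change 0.77 ± 0.062, adjusted p = 3.74e-08), so that it stood opposite to most hydrolases at d2.5 and in the order of Ctsb at d5. The lipid transporter Abca2 (0.52 ± 0.061) and the mitophagy receptor Bnip3l (0.38 ± 0.04) rose next with FGF2 at d2.5. The largest falls were those of the sorting receptor Sort1 (10.3-fold, from 13.0, 9.29 and 11.4 to 1.13, 0.873 and 1.27 CPM), the lipid amidase Naaa (-1.25 ± 0.05) and the autophagy receptor Optn (-1.22 ± 0.063).

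With the knockdown at d2.5 the changes were small, with Ostm1 (0.38 ± 0.065), Ctso (0.34 ± 0.11) and Mfsd8 (0.33 ± 0.11) leading the rises and Naaa (-0.51 ± 0.063), the protease Atg4d (-0.39 ± 0.14) and the lipid carrier Atg2a (-0.35 ± 0.065) leading the falls. With FGF2 at d5 the autophagy receptor Calcoco1 (0.87 ± 0.068), the hyaluronidase Hyal2 (0.73 ± 0.093) and the peptide transporter Abcb9 (0.69 ± 0.23) rose most, and the pump partner Atp6ap2 (-0.49 ± 0.053) and Ctsc were among those that fell most. With the knockdown at d5 Cd68, a membrane protein best known from macrophages, rose (log2 fold change 1.07 ± 0.24, adjusted p = 0.00197) from 1.38, 2.61 and 2.07 to 4.59, 3.90 and 4.48 CPM, beside macrophage markers that summed to at most 1.63 CPM in any library. Fnip2, a partner of folliculin in nutrient sensing, rose from 123, 173 and 154 to 287, 298 and 300.1 CPM (log2 fold change 0.97 ± 0.10, adjusted p = 1.06e-06). Naaa (-0.65 ± 0.067), the sulfatase Ids (-0.65 ± 0.043) and the folate hydrolase Ggh (-0.56 ± 0.17) fell most, so that Naaa fell with the knockdown on both days.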

How the data were processed

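Bulk RNA-seq of O9-1 cells was analysed in 18 libraries. For each library the authors deposited raw counts per gene, unstranded and by strand, with no normalization. The submitters' processing notes name FastQC, STAR, Picard, featureCounts and mm10, with no version. Reverse-strand counts were used (96.0% to 96.6% of stranded counts). Entries that name no gene took 27.0% to 34.4% of each library's counts and were excluded. Of 55335 identifiers 55154 matched GENCODE M21 by stable ID. CPM used TMM factors over all 18 libraries.

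The quasi-likelihood test of edgeR 4.0.16 (R 4.3.3, limma 3.58.1) was used, with TMM factors and filterByExpr, in 1 fit for the 9 libraries of each day (13677 and 13304 genes) and 1 of all 18 (14198 genes) for differences between days. A gene is called at a Benjamini-Hochberg adjusted p under 0.05, and all adjusted p-values come from these tests. Each SE was taken from the fold change and the F statistic (size over root F). The test was run on simulated counts first. Count ratios have exact binomial 95% intervals. Alternatives were DESeq2 1.42.0, RLE and upper-quartile factors, other filters, unstranded counts, a replicate block, the 2 groups alone and each library left out. E-boxes were searched as plain letters on both strands of RefSeq promoter windows.

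The members and lists were chosen with earlier results of these data known. Values per library are given for members called and at least 1.5-fold changed without overlap within a day, and for Tfeb, Tfe3, Lamp1 and Sqstm1. The other genes named are the 3 largest rises and falls of each comparison among called genes whose libraries did not overlap and whose log2 CPM averaged 1 or more. A gene that this rule names is not reported here.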

Additional observations from a re-analysis of the deposited data

Results flagged for a closer look

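The changes below differed between d2.5 and d5 by a test of the difference itself, the interaction term of the fit of all 18 libraries, and are given as the log2 change at d5 minus that at d2.5. For FGF2, 25 of 39 members (64.1%) differed, close to the 60.9% of all genes. For the knockdown, 15 of 39 members (38.5%) differed, beside 20.9% of all genes. For FGF2, the difference was positive among the hydrolases and cofactors for Ctsa (0.63), Ctsd (0.66), Ctsf (1.52), Ctsh (0.67), Lgmn (0.38), Gaa (0.69), Neu1 (1.20), Psap (0.51), Grn (0.30) and Npc2 (0.11). It was positive among the membrane proteins for Lamp2 (0.62), Cd63 (0.30), Npc1 (0.34) and Mcoln1 (0.28), for the pump gene Atp6v0d1 (0.68), and among the autophagy genes for Map1lc3a (1.16), Map1lc3b (1.06), Gabarapl1 (0.54), Wipi1 (1.52) and Ulk1 (1.19). It was negative for Ctsl (-0.87), Gla (-0.47), Asah1 (-0.32), Atp6v1h (-0.26) and Sqstm1 (-0.40).

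For the knockdown, the difference was positive for the factors Tfe3 (0.21) and Mitf (0.38), for Ctsb (0.86), Ctsd (0.67), Ctsl (0.38), Lgmn (0.49), Gla (0.73) and Grn (0.28), for Cd63 (0.22) and Mcoln1 (0.38), and for Atp6ap1 (0.32) and Sqstm1 (0.15). It was negative for Ctsf (-0.68), Lamp2 (-0.16) and Gabarapl1 (-0.24). The adjusted p-values nearest the threshold were those of Npc2 (0.0437) and Ctsh (0.0385) for FGF2 and of Sqstm1 (0.0451) and Tfe3 (0.0358) for the knockdown. No explanation of these differences was tested.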

How the results depend on the processing

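The number of members called stayed within 1.5 times its reported value under every alternative, for all 9 comparisons. In the FGF2 and knockdown comparisons of each day, where single members were followed, no called member changed direction under any. Leaving out 1 library each gave 32 to 33 for FGF2 at d2.5 (33 reported), 21 to 25 for FGF2 at d5 (23), 10 to 18 for the knockdown at d2.5 (15) and 15 to 19 at d5 (18), 31 to 33 and 19 to 26 when Y/T dKD+FGF2 was set against Ctrl+vehicle at d2.5 and d5, 33 to 33 for d5 against d2.5, 23 to 28 for FGF2 by day and 12 to 17 for the knockdown by day. The same fits called 63.3% to 67.4% of all genes for FGF2 at d2.5 and 40.7% to 45.8% at d5. For the knockdown they called 16.1% to 27.6% at d2.5 and 24.6% to 33.3% at d5. With upper-quartile factors the median of all genes shifted to -0.11 for d5 against d2.5 and to 0.12 for FGF2 by day, and the members' medians to 0.68 and 0.28, with 3 members lower at d5 in Ctrl+vehicle.

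The replicate numbers showed at most a weak pairing: deviations of same-numbered libraries correlated at -0.08 to 0.04 at d2.5 and -0.06 to 0.16 at d5. Between Ctrl+vehicle and Ctrl+FGF2 at d5, same-numbered libraries correlated at 0.03 to 0.16. Differently numbered ones correlated at -0.15 to -0.001 there. The deviations were taken from each group's own mean, so the latter range follows in part from the former and is not separate evidence. A pairing is not excluded for that comparison. With the replicate number as a block, 32, 14, 24 and 19 members were called for FGF2 and the knockdown at d2.5 and at d5, which lost Tfe3 for FGF2 and Map1lc3a for the knockdown at d2.5. The shares of all genes called were then 67.1%, 23.6%, 47.7% and 32.7%, beside 67.6%, 24.5%, 47.2% and 31.7% without the block.

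Single calls were lost as follows, with the highest adjusted p reached. For FGF2, Tfeb at d2.5 was lost with DESeq2 and without Ctrl+FGF2 replicate 2 (0.0595), Tfe3 at d2.5 under 10 of 17 alternatives, among them without Ctrl+vehicle replicate 2 or 3 and without Ctrl+FGF2 replicate 1 or 3 (0.181), Ctsd at d5 without Ctrl+FGF2 replicate 3 (0.0731), and Cd63 at d5 with upper-quartile factors and without Ctrl+vehicle replicate 2, Ctrl+FGF2 replicate 1 or 3 (0.101). For the knockdown at d2.5, Asah1 was lost without Ctrl+FGF2 replicate 1 or Y/T dKD+FGF2 replicate 3 (0.0804), Ctsl without Y/T dKD+FGF2 replicate 1 (0.0649), Tfeb without Ctrl+FGF2 replicate 2 (0.0511) and Lgmn with DESeq2 and without Ctrl+FGF2 replicate 2 or Y/T dKD+FGF2 replicate 3 (0.0762). Map1lc3a was lost under 7 of 17, among them without Ctrl+FGF2 replicate 1 or 3 or any 1 Y/T dKD+FGF2 library (0.232), Ctsa under 10, among them without Ctrl+vehicle replicate 3, any 1 Ctrl+FGF2 library or Y/T dKD+FGF2 replicate 1 or 3 (0.213), and Cd63 without Ctrl+vehicle replicate 3, Ctrl+FGF2 replicate 1 or 3 or any 1 Y/T dKD+FGF2 library (0.132). The lowest number of members called for the knockdown at d2.5, 10, came without Y/T dKD+FGF2 replicate 3. The share of all genes called was then 16.1%, against 24.5% with all libraries. For the knockdown at d5, Tpp1 was lost without Ctrl+FGF2 replicate 1 or Y/T dKD+FGF2 replicate 2 (0.0676), Map1lc3a without Ctrl+FGF2 replicate 2 or Y/T dKD+FGF2 replicate 1 or 3 (0.148), Gaa without Ctrl+FGF2 replicate 2 or 3 or Y/T dKD+FGF2 replicate 1 or 3 (0.095), Atp6v0d2 without Ctrl+FGF2 replicate 1 or 3 or Y/T dKD+FGF2 replicate 2 (0.16), and Tfe3 with DESeq2, with upper-quartile factors and without Ctrl+FGF2 replicate 1 or 2 or Y/T dKD+FGF2 replicate 2 or 3 (0.164). The cause of these losses was not tested. Low counts limit Ctsk, Ctss and Atp6v0d2 at d2.5 and Atp6v0d2 and Ctsh at d5.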
